A study of Mus musculus with 36 samples.

Results

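Glucocorticoids act through the glucocorticoid receptor (GR), and the 10 genes described here encode GR itself, its closest relative, the chaperones that hold it ready for ligand and the enzyme that makes its ligand in the cell. They were chosen by name from the 55487 genes of a count table made from mouse embryonic fibroblasts (MEFs). The set consists of the receptor gene Nr3c1, the mineralocorticoid receptor gene Nr3c2, the HSP90 genes Hsp90aa1 and Hsp90ab1, the HSP70 gene Hspa8, the co-chaperone genes Ptges3 and Stip1, the FK506-binding protein genes Fkbp4 and Fkbp5, and Hsd11b1. All 10 passed the filter on low counts and were among the 15489 genes tested.

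Without ligand, GR sits in the cytoplasm in a cycle of chaperone complexes. HSP70 (here the constitutive form, Hspa8) first takes hold of the receptor, STIP1 (also called Hop) bridges HSP70 and HSP90, and p23, the product of Ptges3, closes HSP90 around a ligand-binding domain that can accept hormone. The FKBPs join the mature complex: FKBP51, from Fkbp5, lowers the affinity for hormone and its gene is a classical glucocorticoid target, whereas FKBP52, from Fkbp4, favours transport to the nucleus. The mineralocorticoid receptor binds the endogenous glucocorticoids as well, and 11β-hydroxysteroid dehydrogenase type 1, from Hsd11b1, regenerates active glucocorticoid from its inactive keto form.

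Primary MEFs of 5 genotypes were treated for 5 h with 1 µM dexamethasone (Dex), a synthetic glucocorticoid, or with vehicle, and 36 libraries were sequenced in 2 runs. Run 1 held GRwt/wt, GRD/D, GRD+L/D+L and GRko/ko, and run 2 held another set of GRwt/wt and GRL/L, each with 3 vehicle and 3 Dex libraries. The D allele (also called dim) exchanges an alanine for a threonine in the DNA-binding domain, the L allele exchanges an isoleucine for an alanine in the ligand-binding domain, GRD+L carries both changes in 1 protein, and GRko/ko lacks a functional receptor gene. The comparisons ask what these receptor forms did to the response to Dex and to the state of the cells without it.

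The MEFs came from mid-gestation embryos of heterozygous crosses after removal of head and organs, and the design names 3 primary cultures per genotype from different mice. It is not stated whether a shared replicate number marks a shared culture, nor whether the GRwt/wt libraries of the runs come from the same cultures. The GRL and GRD+L alleles were made by CRISPR/Cas9 in zygotes that already carried 1 D allele, GRD+L descends from 1 founder pup, and both lines were backcrossed to FVB/NJ. Every library is labelled FVB/NJ, whereas the methods describe the parents of the GR null embryos as mice of a 129 background, so strain and genotype cannot be told apart for GRko/ko. Each mutant was sequenced in 1 run only, and the GRwt/wt libraries are shared by all comparisons of mutants with GRwt/wt.

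Between 15280166 and 19102035 reads were counted per library in run 1, and between 21532686 and 28662608 in run 2, and no pair of libraries of 1 group agreed within counting noise. Their disagreement was uneven, with a mean chi-square per gene from 1.58 to 26.5. The highest value was that of vehicle replicates 2 and 3 of GRD/D. In GRwt/wt of run 2, Dex replicate 4 gave 16.4 and 19.5 against replicates 5 and 6. All 10 fibroblast markers were present in every group, but their summed level differed. It was 26335 to 28818 CPM (counts relative to the scaled library size) in GRwt/wt of run 1, 20908 to 21854 in GRD+L/D+L and 30473 to 32830 in GRko/ko. In GRwt/wt of run 2 it was 27208 to 29906, in GRD/D 22098 to 31058 and in GRL/L 26763 to 33655. The summed level of 10 macrophage markers also differed between groups: 183 to 323 CPM in the GRwt/wt libraries of run 1, 441 to 504 in those of run 2, 668 to 793 in GRD/D, 704 to 1001 in GRL/L, 30.9 to 41.3 in GRD+L/D+L and 2532 to 2991 in GRko/ko. The part of the cell mixture in the differences between genotypes below was not tested. In bulk RNA, fewer cells that express a gene and less RNA per cell cannot be told apart.

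Levels below are CPM scaled by trimmed mean of M values (TMM), and levels of different genes are compared only as CPM per kilobase of exon (RPKM), with the summed exon length of the GENCODE annotation of GRCm38. Changes are log2 values with their standard error (SE) from edgeR's quasi-likelihood test across all 36 libraries, and a gene is called changed at an adjusted p of at most 0.05 with no limit on the fold. In GRCm38 coordinates, Nr3c2 lies on chromosome 8 at 76899442 to 77245012, Hsp90aa1 on 12 at 110690605 to 110702728, Hsp90ab1 on 17 at 45567775 to 45573271 and Hspa8 on 9 at 40800984 to 40810087. Ptges3 lies on chromosome 10 at 128058954 to 128077272, Stip1 on 19 at 7020702 to 7039967, Fkbp4 on 6 at 128429735 to 128438677, Fkbp5 on 17 at 28399094 to 28517527 and Hsd11b1 on 1 at 193221634 to 193264075. Genes on the same strand overlap Hspa8 (3 small nucleolar RNA genes), Fkbp5 (2), Nr3c2 (1) and Hsd11b1 (1). On either strand, 4 genes overlap Fkbp5, 3 Nr3c2 and 3 Hsd11b1, among the last Lamb3. Ptges3 has 1 pseudogene named after it (Ptges3-ps), and copies of the members under other names were not searched for. Reads of these genes could thus be split between features. The annotation and strand setting used for counting are not given in the sources used here.

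The pair of FKBP genes makes the contrast in these data most visible, since Dex changed one of them many fold and the other not detectably, and their promoters are shown for that reason. Each sequence holds the 250 bases before 1 RefSeq start site of the gene, read 5′ to 3′ on the gene's own minus strand of GRCm38.p6, at chr17:28486150-28486399 for Fkbp5 and chr6:128438657-128438906 for Fkbp4. The Fkbp5 window lies inside the gene span given above, whose 5′ end on the minus strand is at 28517527, so its start site is an internal one. Capitals mark CCAAT (or ATTGG, the same box on the other strand) and, in Fkbp4, the match to GAANNTTC.
Fkbp5: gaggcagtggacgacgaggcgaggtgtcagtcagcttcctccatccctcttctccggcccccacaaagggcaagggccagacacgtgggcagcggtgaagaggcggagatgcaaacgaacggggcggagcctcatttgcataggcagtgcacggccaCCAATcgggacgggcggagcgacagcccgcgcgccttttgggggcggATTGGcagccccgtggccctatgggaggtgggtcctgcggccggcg
Fkbp4: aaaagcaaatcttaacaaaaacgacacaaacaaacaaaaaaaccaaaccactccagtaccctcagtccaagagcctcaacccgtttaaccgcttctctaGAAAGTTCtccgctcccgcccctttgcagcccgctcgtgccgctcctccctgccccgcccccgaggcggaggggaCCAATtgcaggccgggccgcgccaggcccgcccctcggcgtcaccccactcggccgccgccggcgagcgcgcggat

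The following motifs were searched on both strands of these windows: AGAACA, the hexamer of a glucocorticoid response element, GAANNTTC and TTCNNGAA, the inverted pairs of the heat shock element, the CCAAT box and TATAAA. RefSeq windows were matched for 6 of the 10 genes (Nr3c2, Ptges3, Stip1, Fkbp4, Fkbp5 and Hsd11b1). Neither AGAACA nor TTCNNGAA occurred in any of the 6 windows, against 16.1% and 7.17% of all 32851 windows of the same length. GAANNTTC, in 6.69% of all windows, occurred in Fkbp4 and Nr3c2, in both with its first base 151 bases before the start. CCAAT, in 33.8% of all windows, occurred in 5 of the 6, with 4 matches in Stip1, 3 in Nr3c2, 2 in Fkbp5 and 1 each in Fkbp4 and Hsd11b1, while TATAAA, in 12.4%, occurred in Stip1 at 30 bases. Fkbp5, which rose with Dex in the 4 genotypes other than GRko/ko, thus held neither AGAACA nor a heat shock element pair in this window, which says nothing of sites elsewhere.

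Per length, the 10 genes spanned a wide range of levels in vehicle. Hsp90ab1 stood highest, with a median of 671 RPKM over the 18 vehicle libraries and a range from 574 to 727, followed by Hspa8 with 147 (136 to 172), Hsp90aa1 with 97.5 (64.7 to 127) and Stip1 with 94.8 (67 to 110). Hsp90aa1 was above Stip1 in 13 of 18 libraries, so their order was not fixed, whereas each of the neighbours Hsp90ab1 and Hspa8, Stip1 and Fkbp4, Fkbp4 and Ptges3, and Ptges3 and Nr3c1 kept their order in 18 of 18. Fkbp4 had a median of 36.4 RPKM, Ptges3 of 25.7, Nr3c1 of 11.4 and Fkbp5 of 5.30, and Nr3c1 was above Fkbp5 in 15 of 18 libraries, the exceptions being the GRko/ko ones. The lowest were Hsd11b1, with a median of 0.161 RPKM (0 to 0.865), and Nr3c2, with 0.0948 (0.0207 to 0.224), which rest on 0 to 99 and 1 to 44 counts per library over the whole experiment. Hsp90ab1 was 5.39 to 9.13 times as high as Hsp90aa1 per length in vehicle, depending on the library.

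**Figure D1:**
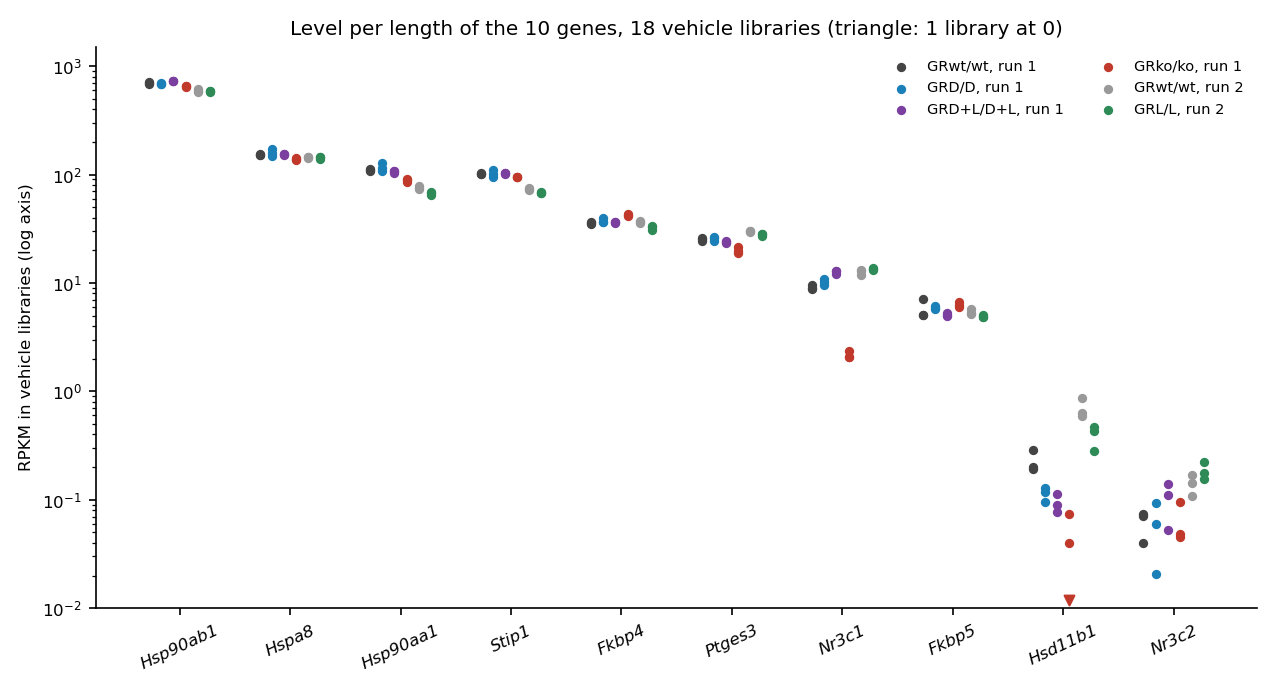
RPKM on a log axis of the 10 genes in the 18 vehicle libraries, 3 per genotype and run, with genes in order of their median. Hsp90ab1 stands at 574 to 727 RPKM, Nr3c1 of GRko/ko lies apart from the other genotypes near 2 RPKM, and the triangle is the GRko/ko library with 0 counts of Hsd11b1.

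The targeted gene was examined first. Nr3c1 lies at chr18:39410545-39519421 in GRCm38. Nr3c1 was low but not absent in the libraries labelled GRko/ko, at 16.1, 17.97 and 15.9 CPM in vehicle and 16.8, 17.3 and 20.4 CPM in Dex, or 251 to 340 counts each. The GRwt/wt libraries of the same run held 67.2, 69.2 and 74.3 CPM in vehicle and 50.1, 47.8 and 48.5 CPM in Dex. All 6 GRko/ko libraries lay below every other library of the experiment. By summed counts, GRko/ko held 23.7% of the GRwt/wt level in vehicle (95% counting interval 22 to 25.6%) and 37.2% in Dex (34.4 to 40.1%). Which exons the null allele lacks is not given in the sources used here, and a gene count does not show whether the remaining reads come from a shortened transcript.

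Dex changed 4 of the 10 genes in GRwt/wt, taken over both runs, where 33.6% of all genes tested were called. Fkbp5 and Hspa8 rose, and Nr3c1 and Nr3c2 fell. In GRD/D 2 of the 10 were called against a background of 10.1%, in GRL/L 4 against 17.7%, and in GRD+L/D+L 3 against 4%. None of the 10 was called in GRko/ko, where edgeR called 0% of all genes. There, 5.08% of the genes had an unadjusted p under 0.05, and DESeq2 called 1 gene. Within the runs, 5 of the 10 were called in GRwt/wt of run 1 (background 13.9%) and 4 in GRwt/wt of run 2 (31.6%). The called changes past an absolute log2 value of 1 were those of Fkbp5 in GRwt/wt, GRL/L and GRD/D and of Nr3c2 in GRwt/wt.

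**Figure D2:**
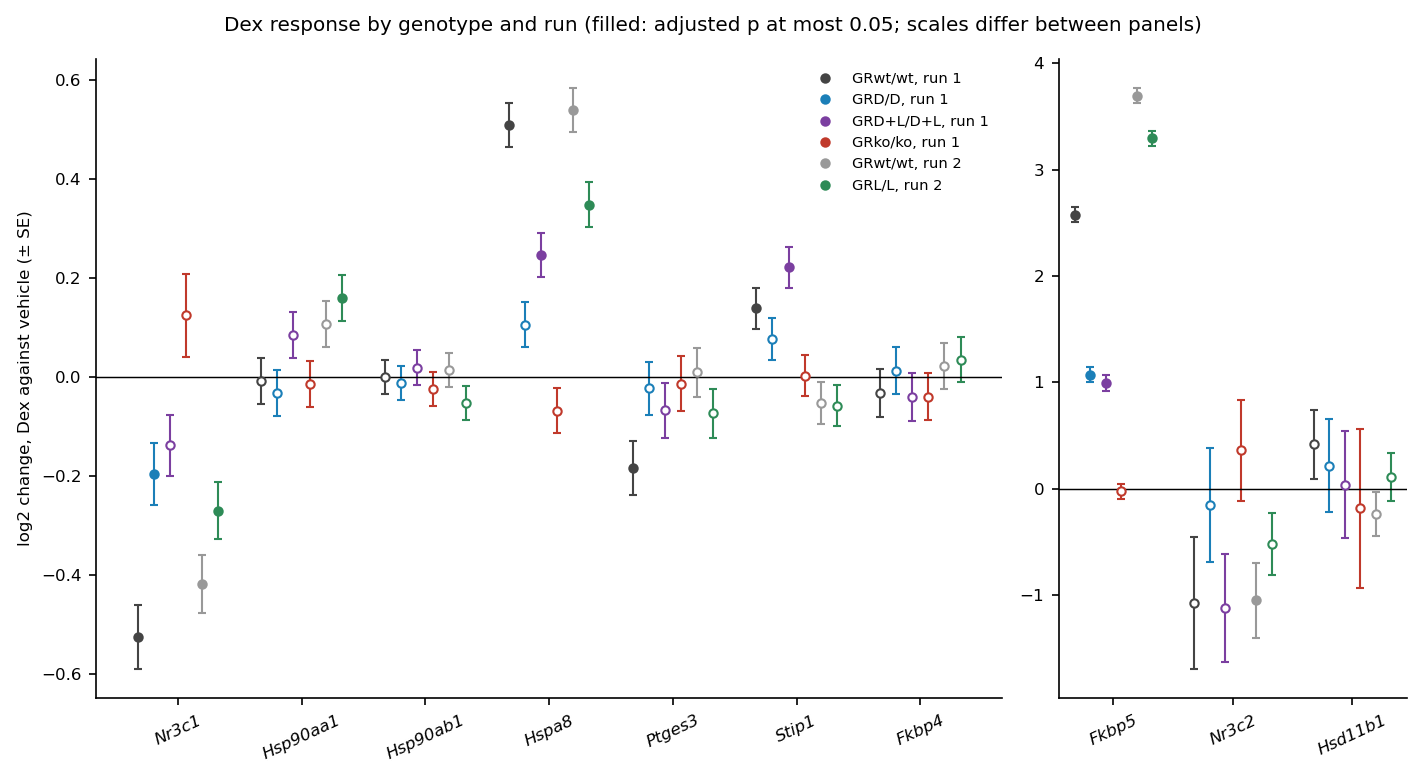
Log2 change with Dex against vehicle, with SE, for each gene in the 6 combinations of genotype and run (3 against 3 libraries each), from a model with a term for every combination. Filled points have an adjusted p of at most 0.05, and Fkbp5, Nr3c2 and Hsd11b1 have a scale of their own. Fkbp5 reached 3.70 in GRwt/wt of run 2 and 2.58 in run 1, and lay near 0 in GRko/ko.

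Transcripts of the receptor itself fell with Dex in GRwt/wt and GRL/L and, close to the threshold, in GRD/D. In GRwt/wt of run 2, Nr3c1 stood at 98.1, 101.1 and 91.8 CPM in vehicle and at 64.6, 75.6 and 77.6 CPM in Dex, and in both runs every Dex library lay below every vehicle library. Over both runs it fell by 0.47 ± 0.04 on the log2 scale (adjusted p = 1.19e-10, edgeR). In GRL/L it went from 100.8, 103.9 and 104.6 CPM to 85.6, 85.5 and 85.5 CPM, again without overlap, a log2 change of −0.27 ± 0.06 (adjusted p = 0.001).

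In GRD/D the levels were 73.2, 83.0 and 78.3 CPM in vehicle and 73.9, 64.4 and 66.7 CPM in Dex, so that Dex replicate 1 lay within the vehicle range. The log2 change of −0.20 ± 0.06 passed the threshold narrowly (adjusted p = 0.0454) and was no longer called without GRD/D Dex replicate 2 (−0.15, adjusted p = 0.256) or 3 (−0.18, adjusted p = 0.156), without vehicle replicate 2 (−0.15, adjusted p = 0.237) or 3 (−0.20, adjusted p = 0.0755) in edgeR. It was also lost with the size factors of DESeq2 in edgeR (adjusted p = 0.0588), without a filter (adjusted p = 0.0595), with a replicate block (adjusted p = 0.103) and with only GRD/D in the fit (adjusted p = 0.195). In GRD+L/D+L, Nr3c1 stood at 98.9, 98.9 and 93.6 CPM in vehicle and 89.9, 86.8 and 88.3 CPM in Dex, a log2 change of −0.14 ± 0.06 that was not called (adjusted p = 0.318) although the groups did not overlap. It was called when only the genotype compared was fitted in edgeR (−0.14, adjusted p = 0.0144). In GRko/ko the residual transcript had a log2 change of 0.13 ± 0.08 (adjusted p = 0.989).

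Nr3c2, the mineralocorticoid receptor, was close to the floor of detection. In GRwt/wt of run 2 it had 26, 30 and 19 counts in vehicle and 8, 18 and 8 in Dex, and in run 1 it had 4, 7 and 7 against 6, 2 and 1. The groups did not overlap in run 2 and did in run 1. Over both runs Nr3c2 fell by 1.06 ± 0.30 on the log2 scale (adjusted p = 0.00615). Within run 2 the change was −1.05 ± 0.35 (adjusted p = 0.0199) and lost its call without Dex replicate 4 (adjusted p = 0.099), Dex replicate 6 (adjusted p = 0.095) or vehicle replicate 5 (adjusted p = 0.0931) in edgeR. In run 1 the change of −1.07 ± 0.62 was not called (adjusted p = 0.297), nor was it in any mutant, where it ranged from −1.12 in GRD+L/D+L to 0.36 in GRko/ko.

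Of the main chaperones, Hspa8 rose with Dex in GRwt/wt and the HSP90 genes were not called there. Hspa8 stood at 660.1, 648 and 653 CPM in vehicle and 952, 925 and 914 CPM in Dex in GRwt/wt of run 1, and at 615, 624 and 628 CPM and 952, 880.3 and 880.6 CPM in run 2. The vehicle and Dex libraries were far apart in both runs, with log2 changes of 0.51 ± 0.04 and 0.54 ± 0.04. Over both runs Hspa8 rose 1.44-fold (log2 0.52 ± 0.03, adjusted p = 8.29e-16).

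In GRL/L, Hspa8 went from 626, 618 and 602 CPM in vehicle to 757, 816 and 778 CPM, and rose by 0.35 ± 0.05 on the log2 scale (adjusted p = 2.57e-07). In GRD+L/D+L it went from 649.6, 662 and 658 CPM to 783, 796 and 758.5 CPM, and rose by 0.25 ± 0.05 (adjusted p = 0.000382). Neither pair of groups overlapped. In GRD/D the vehicle libraries, at 681, 742 and 632 CPM, overlapped the Dex libraries, at 759, 764 and 688 CPM, and the change of 0.11 ± 0.05 was not called (adjusted p = 0.139). It was called without GRD/D Dex replicate 3 (0.155, adjusted p = 0.0421) or vehicle replicate 2 (0.17, adjusted p = 0.0171) in edgeR. In GRko/ko, Hspa8 had 604, 594 and 585 CPM in vehicle and 571, 555 and 576 CPM in Dex, a change of −0.07 ± 0.05 with an adjusted p of 0.989.

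Hsp90ab1, the constitutive HSP90 gene, varied least of all 10 members, from 1677 to 2231 CPM over the 36 libraries, a ratio of 1.33, and its Dex change lay between −0.05 in GRL/L and 0.02 in GRD+L/D+L with no call. Hsp90aa1, the inducible HSP90 gene, had 263, 254 and 268 CPM in vehicle and 288, 307 and 284 CPM in Dex in GRL/L, without overlap, and rose by 0.16 ± 0.05 on the log2 scale (adjusted p = 0.0163). That call was lost without GRL/L Dex replicate 2 (0.13, adjusted p = 0.128) or vehicle replicate 2 (0.14, adjusted p = 0.0972) in edgeR. In GRwt/wt over both runs its change was 0.05 ± 0.03 (adjusted p = 0.272), with 0.11 ± 0.05 in run 2 (adjusted p = 0.072) and −0.01 ± 0.05 in run 1 (adjusted p = 0.956).

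The co-chaperone genes moved by small amounts. Ptges3 had 57.6, 56.5 and 53.6 CPM in vehicle and 51.0, 47.3 and 49.4 CPM in Dex in GRwt/wt of run 1, and fell there by 0.18 ± 0.05 on the log2 scale (adjusted p = 0.0195). In run 2 it had 66.3, 66.3 and 65.0 CPM against 70.4, 65.8 and 62.7 CPM, with a change of 0.01 ± 0.05 (adjusted p = 0.908). Stip1 had 213, 216 and 212 CPM in vehicle and 234, 238 and 234 CPM in Dex in run 1, and rose there by 0.14 ± 0.04 (adjusted p = 0.0213). Neither gene's groups overlapped in run 1, but both calls depended on the library set: that of Ptges3 was lost without Dex replicate 2 (adjusted p = 0.103) or 3 (adjusted p = 0.0542) or vehicle replicate 1 (adjusted p = 0.0921) or 2 (adjusted p = 0.0563), and that of Stip1 without Dex replicate 2 (adjusted p = 0.0852) or vehicle replicate 1 (adjusted p = 0.0744) or 3 (adjusted p = 0.067) in edgeR. Over both runs neither was called in GRwt/wt, at −0.08 ± 0.04 for Ptges3 (adjusted p = 0.135, and 0.0273 without Dex replicate 4) and 0.04 ± 0.03 for Stip1 (adjusted p = 0.354).

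In GRD+L/D+L, Stip1 went from 213, 219 and 218 CPM in vehicle to 254, 250.1 and 254 CPM in Dex and rose by 0.22 ± 0.05 on the log2 scale (adjusted p = 0.00275). The Dex libraries all lay above the vehicle libraries. In GRL/L all 3 Dex libraries, at 140.9, 138 and 134 CPM, lay below the vehicle libraries, at 146, 141.2 and 142 CPM, with a change of −0.06 ± 0.05 that was not called (adjusted p = 0.49).

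Fkbp5 showed the widest range of responses. It stood at 47.8, 67.4 and 47.6 CPM in vehicle and 327, 327 and 315 CPM in Dex in GRwt/wt of run 1, and at 50.5, 49.4 and 54.2 CPM and 666, 669 and 662 CPM in run 2. The vehicle libraries of the runs lay together, apart from vehicle replicate 2 of run 1, while the Dex libraries of run 2 were all above those of run 1. Fkbp5 rose 5.96-fold in run 1 (log2 2.58 ± 0.07, adjusted p = 1.4e-25) and 13.0-fold in run 2 (3.70 ± 0.07, adjusted p = 3.24e-31), and the value over both runs was 3.17 ± 0.11 (adjusted p = 1.51e-22). Without vehicle replicate 2 the value for run 1 was 2.76.

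In GRL/L, Fkbp5 went from 47.7, 45.5 and 45.5 CPM to 434, 475 and 452 CPM and rose by 3.29 ± 0.16 on the log2 scale (adjusted p = 6.49e-18). In GRD/D it went from 54.4, 57.5 and 55.8 CPM to 119.8, 117 and 116 CPM, a rise of 1.07 ± 0.16 (adjusted p = 6.47e-06). In GRD+L/D+L it went from 49.8, 47.0 and 47.6 CPM to 96.9, 96.1 and 94.5 CPM, a rise of 0.99 ± 0.16 (adjusted p = 5.65e-05). None of these groups overlapped. In GRko/ko the level was 59.2, 63.1 and 56.6 CPM in vehicle and 59.6, 60.9 and 55.6 CPM in Dex, with a change of −0.02 ± 0.16.

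Fkbp4 was not called in any genotype, with Dex log2 changes from −0.04 in GRD+L/D+L and GRko/ko to 0.04 in GRL/L and 0.00 ± 0.03 in GRwt/wt (95% interval −0.069 to 0.062). The balance of the FKBP pair therefore shifted with Dex. Per length, the median ratio of Fkbp5 to Fkbp4 was 0.14 to 0.162 in the vehicle groups, and with Dex it was 0.969 in GRwt/wt of run 1, 1.93 in GRwt/wt of run 2, 1.44 in GRL/L, 0.321 in GRD/D, 0.282 in GRD+L/D+L and 0.148 in GRko/ko. By this measure, Fkbp5 RNA passed Fkbp4 RNA with Dex in every library of run 2, both genotypes. It stayed below Fkbp4 RNA in every library of GRD/D, GRD+L/D+L and GRko/ko. The measure divides by summed exon lengths of 9468 bases for Fkbp5 and 2795 for Fkbp4. The transcripts present may be shorter, so which RNA was more abundant depends on these lengths.

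Hsd11b1 was called with Dex in no genotype. It had 13, 12 and 19 counts in vehicle and 21, 17 and 25 in Dex in GRwt/wt of run 1, and 71, 73 and 99 against 69, 65 and 61 in run 2, and after scaling to CPM both pairs of groups overlapped. Its log2 change over both runs was −0.05 ± 0.18 (adjusted p = 0.865) and its 95% interval ran from −0.397 to 0.300.

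**Figure D3:**
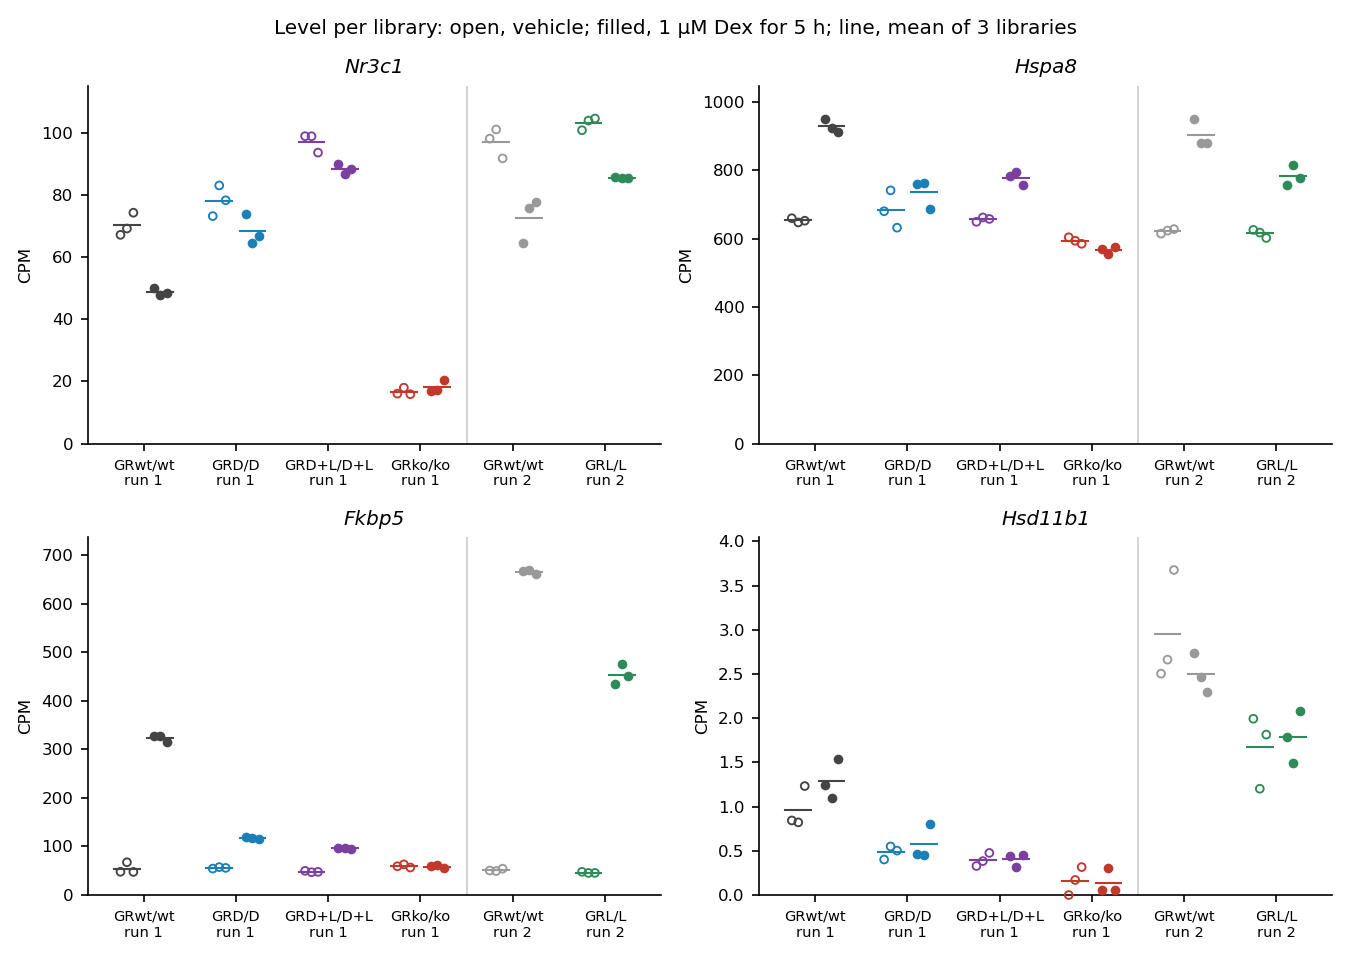
CPM per library of Nr3c1, Hspa8, Fkbp5 and Hsd11b1 by genotype and run, with open circles for vehicle, filled circles for Dex and lines at the mean of 3 libraries. Fkbp5 in Dex lay at 662 to 669 CPM in GRwt/wt of run 2 and at 315 to 327 CPM in run 1, and Hsd11b1 lay lowest in GRko/ko.

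Whether a genotype's response differed from that of GRwt/wt was tested as a difference of Dex responses. The same 3 members, Nr3c1, Hspa8 and Fkbp5, were called in each of GRD/D (background 7.13%), GRD+L/D+L (7.92%) and GRko/ko (14.9%), and each time the difference ran against the GRwt/wt response, upwards for Nr3c1 and downwards for Hspa8 and Fkbp5. None of the 10 was called in GRL/L in the model over both runs (background 0.742%), nor between GRD+L/D+L and GRD/D, where edgeR called 0% of all genes, 9.28% had an unadjusted p under 0.05 and DESeq2 called 21 genes. These comparisons share the GRwt/wt libraries, so they are not independent of each other.

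For Fkbp5 the difference to GRwt/wt was −2.09 ± 0.19 in GRD/D (adjusted p = 6.02e-10), −2.17 ± 0.20 in GRD+L/D+L (adjusted p = 4.5e-10) and −3.19 ± 0.20 in GRko/ko (adjusted p = 1.03e-14), on the log2 scale. Since the Fkbp5 response of GRwt/wt differed between the runs, the same differences against the GRwt/wt libraries of run 1 alone were smaller, at −1.51 ± 0.10, −1.58 ± 0.10 and −2.60 ± 0.10, all called. GRL/L is where the choice of control turned the direction: against both runs the difference was 0.13 ± 0.18 (adjusted p = 0.899), and against GRwt/wt of its own run 2 it was −0.40 ± 0.09 (adjusted p = 0.0127). Within run 2, the Dex libraries of GRL/L held 434 to 475 CPM against 662 to 669 CPM in GRwt/wt of the same run, from 45.5 to 47.7 CPM and 49.4 to 54.2 CPM in vehicle.

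For Hspa8 the difference was −0.42 ± 0.06 in GRD/D (adjusted p = 1.8e-06), −0.28 ± 0.06 in GRD+L/D+L (adjusted p = 0.000825) and −0.59 ± 0.06 in GRko/ko (adjusted p = 4.08e-10). In GRL/L it was −0.18 ± 0.06 (95% interval −0.284 to −0.067, adjusted p = 0.177), with −0.19 ± 0.06 within run 2 (adjusted p = 0.131). Against the GRwt/wt libraries of run 1 alone, the values were −0.40 in GRD/D, −0.26 in GRD+L/D+L and −0.58 in GRko/ko, all called. For Nr3c1 the difference was 0.27 ± 0.08 in GRD/D (adjusted p = 0.0256), 0.33 ± 0.08 in GRD+L/D+L (adjusted p = 0.00447) and 0.59 ± 0.09 in GRko/ko (adjusted p = 1.65e-05), and 0.20 ± 0.07 in GRL/L (adjusted p = 0.333). The GRD/D value lost its call without GRD/D Dex replicate 1 (adjusted p = 0.144) or vehicle replicate 1 (adjusted p = 0.111), with a replicate block (adjusted p = 0.0792) and with only the genotypes compared in the fit (adjusted p = 0.0997) in edgeR.

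**Figure D4:**
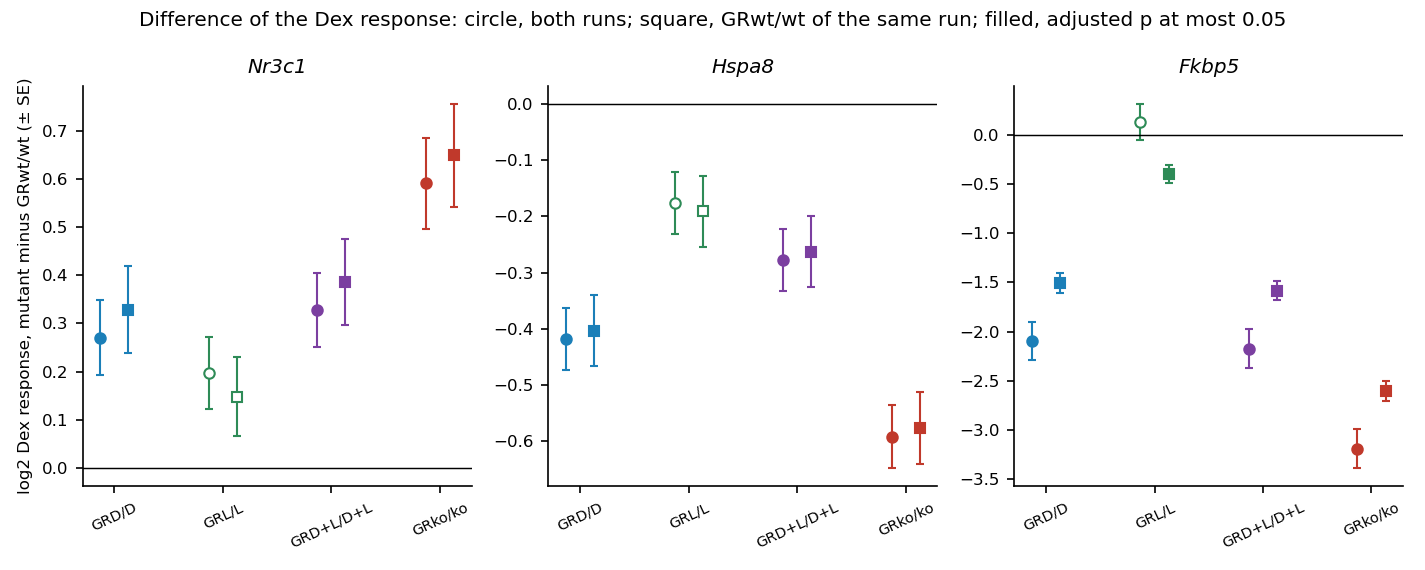
Difference of the log2 Dex response, mutant minus GRwt/wt, with SE, for Nr3c1, Hspa8 and Fkbp5. Circles use GRwt/wt of both runs, squares GRwt/wt of the mutant's own run, and filled symbols have an adjusted p of at most 0.05. For Fkbp5 in GRL/L the circle lies at 0.13 and the square at −0.40.

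No member's response was called different when the L change was added to the D change. Between GRD+L/D+L and GRD/D the responses differed by −0.08 ± 0.22 for Fkbp5 (95% interval −0.516 to 0.361, adjusted p = 0.952), by 0.14 ± 0.06 for Hspa8 (adjusted p = 0.488), by 0.14 ± 0.07 for Stip1 (adjusted p = 0.505) and by 0.06 ± 0.09 for Nr3c1 (adjusted p = 0.887). The 95% intervals are wide, from 0.014 to 0.266 for Hspa8 and from 0.012 to 0.277 for Stip1, and do not show that the genotypes respond alike. These intervals of Hspa8 and Stip1, not adjusted for the number of genes, leave out 0. The SE of Fkbp5 is that of the model over both runs. In the model with a term for each group, Fkbp5 rose by 1.07 ± 0.07 in GRD/D and 0.99 ± 0.07 in GRD+L/D+L. The response of Stip1 in GRD+L/D+L was 0.18 ± 0.06 above that of GRwt/wt, just outside the threshold (adjusted p = 0.0535), and 0.08 ± 0.06 above it within run 1 (adjusted p = 0.667). Over both runs it was called by DESeq2 (adjusted p = 0.0394) and in edgeR without GRwt/wt Dex replicate 2 or vehicle replicate 1, 2 or 3 (adjusted p = 0.0342 to 0.0455).

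Nr3c2 had a response 1.42 ± 0.56 above that of GRwt/wt in GRko/ko that was not called (adjusted p = 0.085), and was called without GRko/ko vehicle replicate 2 (adjusted p = 0.0467) or GRwt/wt Dex replicate 5 (adjusted p = 0.0328) in edgeR.

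Between the runs, the response of GRwt/wt differed for 2 of the 10 genes, where 7.09% of all genes were called. The response of Fkbp5 was 1.12 ± 0.10 log2 units larger in run 2 (adjusted p = 6.42e-11), and 0.94 without the high vehicle replicate 2 of run 1. That of Stip1 was lower in run 2 by −0.19 ± 0.06 (adjusted p = 0.0421), a call with adjusted p from 0.065 to 0.123 when any of the 12 GRwt/wt libraries other than Dex replicate 4 and vehicle replicate 4 was left out.

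Without Dex, the null genotype differed most. In GRko/ko, 9 of the 10 members were called against GRwt/wt, where 48.4% of all genes tested were called and of the 9, 7 were lower and 2 higher. In GRL/L 4 were called, all lower (background 12.6%), in GRD/D 2 (12.6%) and in GRD+L/D+L 2 (33.3%), and between GRD+L/D+L and GRD/D 1 (36%). The vehicle level of Hsd11b1 was called lower in all 4 mutants. An absolute log2 difference of 1 was passed by Nr3c1 in GRko/ko and by Hsd11b1 in GRko/ko, GRD+L/D+L and GRD/D.

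**Figure D5:**
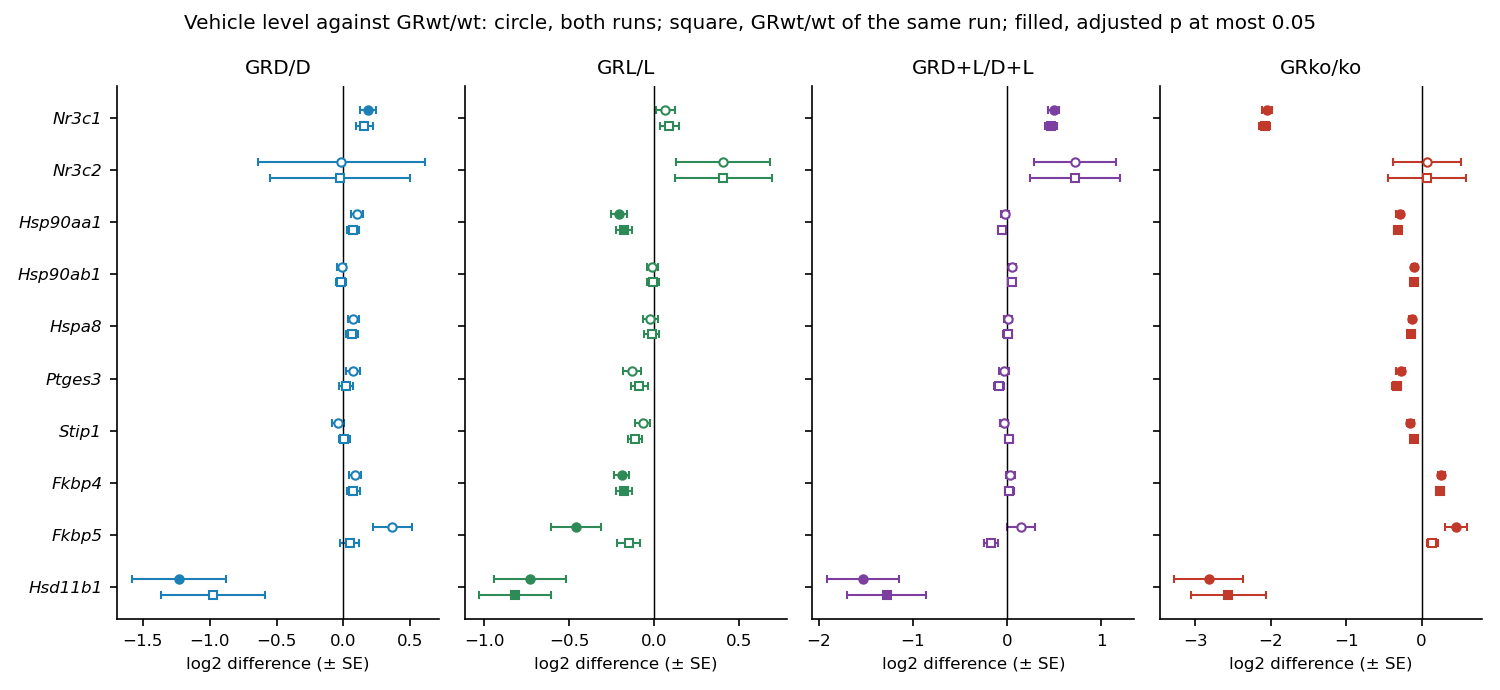
Log2 difference of the vehicle level of each mutant to GRwt/wt, with SE, for the 10 genes. Circles use GRwt/wt of both runs, squares GRwt/wt of the mutant's own run, filled symbols have an adjusted p of at most 0.05, and each panel has its own scale. Hsd11b1 lies left of 0 in all 4 panels, and Nr3c1 lies at −2.05 in GRko/ko and 0.50 in GRD+L/D+L.

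Receptor transcripts were higher in GRD+L/D+L than in GRwt/wt of the same run, with 93.6 to 98.9 CPM against 67.2 to 74.3 CPM and no overlap. The log2 difference was 0.50 ± 0.06 over both runs (adjusted p = 2.17e-08) and 0.47 ± 0.06 within run 1 (adjusted p = 2.17e-07). The GRwt/wt vehicle libraries of run 2 stood at 91.8 to 101.1 CPM, in the range of GRD+L/D+L. The GRwt/wt sets of the runs thus differed by as much, 0.47 on the log2 scale, as GRD+L/D+L did from GRwt/wt of run 1. GRD+L/D+L also exceeded GRD/D, by 0.31 ± 0.06 (adjusted p = 0.000144), without overlap. In GRD/D the difference to GRwt/wt of 0.18 ± 0.06 was called over both runs (adjusted p = 0.0355) but not within run 1 (0.16 ± 0.06, adjusted p = 0.118), where GRD/D replicate 1 lay inside the GRwt/wt range. The call over both runs was also lost without GRD/D vehicle replicate 2 (adjusted p = 0.266) or 3 (adjusted p = 0.0535) or GRwt/wt vehicle replicate 1 (adjusted p = 0.0853), 2 (adjusted p = 0.055) or 6 (adjusted p = 0.0549) in edgeR. In GRL/L it was 0.06 ± 0.06 (adjusted p = 0.523), and in GRko/ko Nr3c1 was lower by −2.05 ± 0.07 (adjusted p = 1.49e-23). Nr3c2 was called in no mutant, with differences from −0.02 in GRD/D to 0.73 ± 0.44 in GRD+L/D+L (adjusted p = 0.206).

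Hsd11b1 was lower in vehicle in each mutant. In run 1 it had 13, 12 and 19 counts in GRwt/wt, 6, 10 and 9 in GRD/D, 5, 6 and 7 in GRD+L/D+L and 0, 3 and 5 in GRko/ko, and in run 2 it had 71, 73 and 99 counts in GRwt/wt and 59, 38 and 55 in GRL/L. None of the mutant groups overlapped the GRwt/wt group of its run. Summed over 3 libraries and scaled, GRko/ko held 16.4% of the GRwt/wt level of run 1 (8 against 44 counts, 95% counting interval 6.65 to 35.1%), GRD+L/D+L 40.8% (22.2 to 72.0%) and GRD/D 50.6% (29.7 to 84.4%). GRL/L held 56.5% of the GRwt/wt level of run 2 (152 against 243 counts, 45.9 to 69.5%), and these intervals cover counting error only. GRwt/wt of run 1 itself held 33.0% of the level of GRwt/wt of run 2 (44 against 243 counts, 23.3 to 45.6%). By these values the GRwt/wt sets differed more than GRD/D, GRD+L/D+L or GRL/L did from GRwt/wt of their run. The mutants of run 1 were all set against the same 44 counts, so their differences are not independent.

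In the model over both runs the log2 differences of Hsd11b1 were −2.82 ± 0.46 in GRko/ko (adjusted p = 2.86e-06), −1.53 ± 0.38 in GRD+L/D+L (adjusted p = 0.00186), −1.23 ± 0.35 in GRD/D (adjusted p = 0.0165) and −0.73 ± 0.21 in GRL/L (adjusted p = 0.0173). Within the own run, the GRD/D difference of −0.98 ± 0.39 was not called (adjusted p = 0.116), while those in GRko/ko (−2.56, adjusted p = 4.93e-05), GRD+L/D+L (−1.28, adjusted p = 0.0182) and GRL/L (−0.82, adjusted p = 0.00695) were. The call in GRL/L was lost without GRL/L vehicle replicate 2 (adjusted p = 0.172) or GRwt/wt vehicle replicate 6 (adjusted p = 0.109), and that in GRD/D without GRD/D vehicle replicate 1 (adjusted p = 0.067) in edgeR. The summed level of 5 adipocyte markers was 30.9 to 87.4 CPM in GRwt/wt of run 2 and 14.2 to 38.0 CPM in GRL/L. In run 1 it was 3.63 to 16.9 CPM in GRwt/wt, 3.75 to 7.97 CPM in GRD/D, 5.78 to 8.74 CPM in GRD+L/D+L and 3.76 to 5.75 CPM in GRko/ko. These ranges take vehicle and Dex libraries together, and those of the mutants of run 1 lay within that of GRwt/wt of run 1. Of these 5 markers, 2 had no count in any library of GRD/D, GRD+L/D+L or GRko/ko, and 1 of the 5 averaged over 1 CPM there and in GRwt/wt of run 1, against 4 in GRwt/wt of run 2. The macrophage marker sums were lowest in GRD+L/D+L and highest in GRko/ko, and the part of either cell type in the level of Hsd11b1 was not tested. With Dex, GRko/ko likewise held 10.7% of the GRwt/wt level of run 1 (7 against 63 counts, 4.14 to 23.4%).

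The chaperone genes were lower in GRko/ko by small but measurable amounts, in libraries whose summed macrophage markers were 2532 to 2991 CPM against 183 to 323 CPM in GRwt/wt of the same run. The sum of 6 cartilage markers was 179.9 to 551 CPM there against 18.3 to 21.1 CPM, and that of 5 skeletal muscle markers 64.5 to 71.8 CPM against 22.4 to 30.8 CPM. The muscle sum was 116 to 140 CPM in GRD+L/D+L. It consisted mostly of Des, with a mean of 47.1 CPM over all libraries. Myod1, Myog, Myf5 and Actc1 averaged 0.049, 0.18, 0.0010 and 0.77 CPM, so the sum does not show muscle cells. The part of other cell types in the differences was not tested. Hsp90aa1 had 353, 357 and 337 CPM in GRko/ko against 435, 446 and 424 CPM in GRwt/wt of run 1, and was lower by −0.29 ± 0.05 on the log2 scale (adjusted p = 1.63e-06). Ptges3 had 47.2, 42.1 and 44.1 CPM against 57.6, 56.5 and 53.6 CPM, a difference of −0.28 ± 0.06 (adjusted p = 6.91e-05). Neither pair of groups overlapped, and the same holds for the smaller differences of Stip1 (−0.15 ± 0.05, adjusted p = 0.00552), Hspa8 (−0.13 ± 0.04, adjusted p = 0.0117) and Hsp90ab1 (−0.10 ± 0.03, adjusted p = 0.0149) against GRwt/wt of run 1. Fkbp4 went the other way, with 117, 117 and 121 CPM in GRko/ko against 98.2 to 101 CPM in GRwt/wt of run 1, and was higher by 0.26 ± 0.04 (adjusted p = 6.45e-06).

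In GRL/L, Hsp90aa1 had 263, 254 and 268 CPM against 287, 305 and 298 CPM in GRwt/wt of run 2, and was lower by −0.21 ± 0.05 on the log2 scale (adjusted p = 0.00147). Fkbp4 had 93.1, 90.8 and 86.3 CPM against 99.99, 102 and 104 CPM, a difference of −0.19 ± 0.04 (adjusted p = 0.00234). Neither overlapped, and both calls held within run 2, at −0.18 ± 0.05 each. Fkbp4 therefore stood above GRwt/wt in GRko/ko and below it in GRL/L. The marker sums also differed between GRL/L and GRwt/wt of run 2. They were 704 to 1001 against 441 to 504 CPM for macrophage and 92.6 to 132 against 60.0 to 77.1 CPM for cartilage. For skeletal muscle they were lower in GRL/L, at 12.7 to 14.3 against 19.6 to 24.8 CPM. The part of other cell types in these differences was not tested. In GRD/D, Hsp90aa1 (0.10 ± 0.04) and Hspa8 (0.08 ± 0.04) were not called, but were without GRD/D vehicle replicate 3 (0.15, adjusted p = 0.0195, and 0.13, adjusted p = 0.0325, edgeR), as were both between GRD+L/D+L and GRD/D (−0.17 and −0.12). The ratio of Hsp90ab1 to Hsp90aa1 per length had a vehicle median of 8.82 in GRL/L and 7.86 in GRwt/wt of run 2, and of 7.3 in GRko/ko and 6.36 in GRwt/wt of run 1.

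The vehicle level of Fkbp5 depended on how the control was formed. Over both runs it was called higher in GRko/ko (0.46 ± 0.15, adjusted p = 0.00949) and lower in GRL/L (−0.46 ± 0.15, adjusted p = 0.0325), whereas within the own run neither was called, at 0.14 ± 0.07 (adjusted p = 0.124) and −0.15 ± 0.07 (adjusted p = 0.171). The GRL/L call over both runs was also lost without vehicle replicate 1 (adjusted p = 0.0765), 2 (adjusted p = 0.105) or 3 (adjusted p = 0.0915) of GRL/L in edgeR. In GRD/D the difference was 0.37 ± 0.15 over both runs (adjusted p = 0.102) and 0.05 ± 0.07 within run 1 (adjusted p = 0.786), and in GRD+L/D+L its sign turned, from 0.15 ± 0.15 (adjusted p = 0.483) to −0.17 ± 0.08 (adjusted p = 0.0867). The run term of the first model is shared by vehicle and Dex, and the runs differed in Fkbp5 with Dex but not detectably in vehicle (−0.08 ± 0.07, adjusted p = 0.338), which shifts its fitted vehicle levels. GRwt/wt vehicle replicate 2 of run 1 stood apart at 67.4 CPM, above the 47.6 and 47.8 CPM of the other GRwt/wt libraries of its group. Without it, the model over both runs called Fkbp5 higher in GRko/ko (0.68, adjusted p = 1.35e-05), GRD/D (0.59, adjusted p = 0.000683) and GRD+L/D+L (0.37, adjusted p = 0.0193). Also without it, the level within run 1 was called higher in GRko/ko (0.32, adjusted p = 1.03e-05) and in GRD/D (0.23, adjusted p = 0.00528) and not in GRD+L/D+L (0.01, adjusted p = 0.931), an alternative chosen after the data were seen.

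The runs themselves differed in vehicle for 7 of the 10 members, where 72.4% of all genes were called, so a mutant of run 1 and GRL/L of run 2 cannot be compared directly. In GRwt/wt of run 2 against run 1, Hsd11b1 was higher by 1.60 ± 0.27 on the log2 scale (adjusted p = 1.98e-06), Nr3c2 by 1.18 ± 0.41 (adjusted p = 0.0109), Nr3c1 by 0.47 ± 0.06 (adjusted p = 1.91e-08) and Ptges3 by 0.24 ± 0.05 (adjusted p = 0.000127). Hsp90aa1 (−0.55 ± 0.05), Stip1 (−0.46 ± 0.04) and Hsp90ab1 (−0.24 ± 0.03) were lower. The call of Nr3c2 was lost without GRwt/wt vehicle replicate 1 (adjusted p = 0.0684, edgeR). Whether the runs differ by sequencing, culture or embryo cannot be told apart.

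The wider pathway was read from lists of related genes. The HSP70 list holds the HSP70 system, heat shock factors and other heat shock proteins such as Hspb1, Hspb8 and Hspd1. The coactivator list holds GR coactivators and corepressors and also the importin gene Kpnb1. In GRwt/wt, Dex called 5 of 18 further HSP90 co-chaperones and paralogs (4 higher and 1 lower), 13 of 30 genes of the HSP70 list (9 and 4), 4 of 10 other FKBP genes tested (all higher), 2 of 9 genes of glucocorticoid synthesis, metabolism and export tested (1 and 1) and 1 of 17 genes of the coactivator list (lower), against 33.6% of all genes. The median log2 changes of these lists were 0.054, 0.029, 0.070, −0.059 and −0.023 in this order, beside −0.0074 over all genes. Of the listed genes, 9 were too low to be tested, among them Cyp11b1 and Cyp21a1 of adrenal steroid synthesis. Among those named by rule, the small heat shock protein gene Hspb1 rose by 1.24 ± 0.09 on the log2 scale (adjusted p = 3.34e-13) and the J protein gene Dnajb4 by 0.56 ± 0.04 (adjusted p = 6.97e-14). H6pd, which supplies the NADPH that the Hsd11b1 enzyme uses in the endoplasmic reticulum, rose by 0.80 ± 0.05 (adjusted p = 3.49e-16). Esr1, the estrogen receptor gene, fell by 1.26 ± 0.18 (adjusted p = 7.32e-07) from a low level, with a mean of 1.15 CPM over all libraries. Fkbp7 rose by 0.34 ± 0.07 (adjusted p = 8.02e-05), Fkbp1a by 0.14 ± 0.04 (adjusted p = 0.00265) and Fkbp10 by 0.10 ± 0.03 (adjusted p = 0.00212), all far less than Fkbp5.

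Also named by rule and called with Dex were the co-chaperone genes Sgtb (−0.46), Cdc37l1 (0.26) and Ppp5c (0.24), Hspa13 (−0.30), the cholesterol carrier gene Star (−0.58), Esrra (0.13) and the Mediator gene Med14 (−0.37). Star was low, with a mean of 1.04 CPM over all libraries. In GRD/D, Dex called 0 of the 18 HSP90 list genes, 9 of the 30 HSP70 list genes (3 higher and 6 lower), 1 other FKBP gene, 2 metabolism genes and 1 gene of the coactivator list, against 10.1% of all genes. In GRL/L the calls were 4 (2 and 2), 6 (5 and 1), 1, 1 and 2 in the same order (17.7% of all genes), in GRD+L/D+L 1, 1, 0, 1 and 0 (4%), and in GRko/ko 0 of each list (0%).

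In vehicle, GRko/ko differed from GRwt/wt in 7 of the 18 HSP90 list genes (2 higher and 5 lower), 15 of the 30 HSP70 list genes (2 and 13) and 9 of the 10 other FKBP genes (5 and 4), against 48.4% of all genes. The median log2 differences were −0.033, −0.076 and 0.092, beside 0.016 over all genes. The myosin and HSP90 co-chaperone gene Unc45a was lower by −0.83 ± 0.05 (adjusted p = 4.26e-17), the endoplasmic reticulum HSP90 gene Hsp90b1 by −0.30 ± 0.04 (adjusted p = 2.47e-07), Bag2 by −0.42 and the mitochondrial HSP70 gene Hspa9 by −0.27. Of the efflux pump genes that export steroids, Abcb1b was higher by 1.54 ± 0.08 (adjusted p = 3.49e-18) and Abcb1a by 1.08 ± 0.23 (adjusted p = 0.00016). Abcb1a was low, with a mean of 1.66 CPM over all libraries. Fkbp15 was higher by 0.35, Fkbp9 lower by −0.31, Ncoa3 higher by 0.51 and the importin gene Kpnb1 lower by −0.24.

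In GRL/L, the called genes named by rule were Bag2 (−0.24), Hspd1 (−0.20), Ppid (−0.18), Trap1 (−0.14), Kpnb1 (−0.16) and the low Abcb1a (0.65), and 2 of 18 HSP90 list genes and 3 of 30 HSP70 list genes were called, all lower, against 12.6% of all genes. In GRD/D 0 of 18 and 5 of 30 (4 higher and 1 lower) were called, also against 12.6%, with Hspb8 (0.19), Hspa5 (0.17) and Fkbp14 (0.20) named. In GRD+L/D+L 4 of 18 (3 and 1) and 9 of 30 (7 and 2) were called, against 33.3%, with Hspb1 (0.77), Hsph1 (−0.31), Fkbp8 (0.24), Cdc37 (0.19), Fkbp9 (0.12), Fkbp1b (0.62), Med14 (−0.28) and Ncoa2 (−0.33) named. In the model over both runs, Hsph1, a partner of HSP70, was thus lower and Hspb1 higher in vehicle in GRD+L/D+L. The vehicle differences of list genes are all from that model and are not given against GRwt/wt of the own run. A shift like that of Fkbp5 vehicle levels was therefore not examined for them.

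The response of the lists to Dex was also compared with GRwt/wt. In GRD/D 2 of the 18 HSP90 list genes and 6 of the 30 HSP70 list genes differed, all with a lower value than GRwt/wt (7.13% of all genes), in GRD+L/D+L 1 and 3, also lower (7.92%), and in GRko/ko 4 (2 higher and 2 lower) and 8 (3 and 5) (14.9%). In GRL/L none of the lists had a called difference in edgeR, where 0.742% of all genes were called and 9.45% had an unadjusted p under 0.05.

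Across all 36 libraries, the genes whose log2 CPM was most like that of Nr3c1 among 11780 genes were Tor3a (Pearson r = 0.970), Scoc (0.958) and Trib2 (0.953). For Fkbp5 they were Fam160a1 (0.957), Ap1s2 (0.955) and the metallothionein gene Mt2 (0.954), and for Hsd11b1, among 11781 genes, Erbb3 (0.926), Il1rap (0.926) and Sp7 (0.921). These correlations are descriptions over libraries that share genotype, run and treatment, and that of Nr3c1 also spans the 6 GRko/ko libraries.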

How the data were processed

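RNA was measured in 36 libraries of primary MEFs (12 groups of 3). TruSeq libraries were read on an Illumina NextSeq instrument. The authors aligned to mm10 (HISAT2 2.1.0), discarded reads with more than one placement and obtained gene counts from featureCounts 2.0.0. The annotation and strand setting are not given in the sources used here. The deposited values are raw read counts with no filter, one column per library and 0 columns unused, at 15280166 to 28662608 counts per library. Symbols were matched for 55141 of 55487 genes. Counts were tested as deposited with edgeR 4.0.16 in R 4.3.3 (quasi-likelihood test, TMM scaling, filterByExpr, Benjamini-Hochberg adjustment over the 15489 genes kept, which hold 99.9% of counts).

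The model held the 10 combinations of genotype with treatment and a run effect. Comparisons within a run came from a model with a term for each of the 12 groups. The SE was derived from the test statistic, and 95% intervals are 1.96 SE to each side, not adjusted for the number of genes. Log2 CPM used a prior count of 2. Counting intervals of ratios are exact and cover counting error only. Nr3c2 and Hsd11b1 rest on few counts, which limits their precision. Alternatives were DESeq2 1.42.0, its size factors in edgeR, other filters on low counts (none, or at least 10 counts in every library), a replicate block, fits on the compared genotypes alone, GRwt/wt of the mutant's own run alone, and each library left out in turn. The scripts were tested on simulated data.

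The 10 genes and the lists of further genes were chosen with earlier results of these data known. All 10 are named. From each list, up to 3 genes with the smallest adjusted p called in the Dex response of GRwt/wt and up to 2 in the vehicle comparison of each mutant are named. The list of other nuclear receptors is given only in part, since 1 of its genes is not reported here. For Nr3c1, Fkbp5 and Hsd11b1, the 3 genes of highest Pearson r were named where the average count reached 50 or more. Promoter sequences are from RefSeq (GRCm38.p6), and gene positions and exon lengths from GENCODE on GRCm38.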

Additional observations from a re-analysis of the deposited data

Results flagged for a closer look

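The test of the difference itself found unlike Dex responses in 12 cases among the 10 genes, each given as a log2 difference. The response of Nr3c1 differed from that of GRwt/wt by 0.27 in GRD/D, by 0.33 in GRD+L/D+L and by 0.59 in GRko/ko. That of Hspa8 differed by −0.42, −0.28 and −0.59, and that of Fkbp5 by −2.09, −2.17 and −3.19, in the same genotypes. These values use GRwt/wt of both runs. Against GRwt/wt of run 1 alone, the run of these genotypes, those of Fkbp5 were smaller, at −1.51, −1.58 and −2.60. Between the GRwt/wt libraries of the runs, the response of Fkbp5 was larger in run 2 by 1.12 and that of Stip1 differed by −0.19. Against GRwt/wt of its own run, the Fkbp5 response of GRL/L differed by −0.40, which was not called against both runs.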

How the results depend on the processing

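Of the 58 calls of single genes among the 10, 43 kept their call under every alternative that gave a value for them, and 15 lost it under at least 1. None of the 58 turned its direction. The Fkbp5 response difference of GRL/L, not called over both runs, turned to −0.40 against GRwt/wt of its own run and was called there, and 7 values called in neither fit also changed sign in that comparison. With size factors of DESeq2 in edgeR, the genes called among the 10 numbered 1 in the Dex response of GRD/D, 1 in the vehicle level of GRD/D and 2 between GRD+L/D+L and GRD/D. Without a filter they numbered 1 in the Dex response of GRD/D, 3 in that of GRwt/wt of run 1, 2 between GRD+L/D+L and GRD/D in vehicle and 1 in the difference of the GRwt/wt responses between runs, in GRD/D vehicle Nr3c1 was lost (adjusted p = 0.0544) and Fkbp5 gained (0.36, adjusted p = 1.08e-07, edgeR), Fkbp5 was gained between GRD+L/D+L and GRD/D (adjusted p = 0.00763), and the calls of Hsp90ab1 in GRko/ko vehicle (adjusted p = 0.0789, edgeR) and Hsp90aa1 in GRL/L with Dex (0.0609) were lost. With at least 10 counts in every library, which leaves Nr3c2 and Hsd11b1 untested, they numbered 1 in GRD/D and 1 in GRD+L/D+L vehicle and 2 between these genotypes, for which DESeq2 also gave 2. With only the genotypes compared they numbered 1 in the Dex response and 1 in the vehicle level of GRD/D and 2 between GRD+L/D+L and GRD/D, and Fkbp5 in GRko/ko vehicle was not called (adjusted p = 0.0581). Against GRwt/wt of the own run they numbered 0 in GRD/D vehicle and 1 in the response difference of GRL/L, and without GRwt/wt vehicle replicate 2 as well (chosen after the data were seen) 1 in GRD/D vehicle, while Stip1 in GRko/ko was not called (0.094). The causes were not tested.

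With 1 library left out, the genes called among the 10 with Dex ranged from 4 to 5 in GRwt/wt, 1 to 2 in GRD/D, 3 to 4 in GRL/L, 3 to 5 in run 1 and 3 to 4 in run 2 of GRwt/wt. In vehicle they ranged from 1 to 3 in GRD/D, 2 to 4 in GRL/L, 2 to 3 in GRD+L/D+L, 1 to 3 between GRD+L/D+L and GRD/D and 6 to 7 between runs. For the response differences they ranged from 2 to 3 in GRD/D, 3 to 4 in GRD+L/D+L, 3 to 4 in GRko/ko and 1 to 2 between runs.

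Over all genes, the Dex calls of GRD/D (1569) became 693 and those of GRD+L/D+L (620) 1507 with only the genotypes compared, and those of GRD/D became 921 without GRD/D Dex replicate 2. The 0 Dex calls of GRko/ko became 99 without a filter, and at most 6 without 1 library (GRko/ko Dex replicate 1 or vehicle replicate 1 or 2). Vehicle calls of GRD/D (1958) numbered 1181 without GRD/D vehicle replicate 2 and 1302 with only the genotypes compared, and those of GRL/L (1944) numbered 1244 without vehicle replicate 1. Response differences against GRwt/wt of the own run numbered 509 in GRD/D (1105 over both runs), 501 in GRD+L/D+L (1227), 1314 in GRko/ko (2310) and 286 in GRL/L (115). Without GRwt/wt vehicle replicate 2 as well, the first 3 were 445, 482 and 1154. For GRL/L they were 288 without a filter, 60 with only the genotypes compared and as low as 68 without 1 of its libraries, and for GRD/D 693 with only the genotypes compared. The 0 calls between GRD+L/D+L and GRD/D became 67 without a filter, 7 with only the genotypes compared and at most 10 without GRD/D Dex replicate 1.

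The vehicle and Dex libraries of 1 number did not deviate together, with correlations from −0.079 to 0.12 over 18 pairs, 1 of them over 0.1, and 7 of 18 libraries correlated best with their own number. A replicate block left 1 of the 10 genes called in the Dex response of GRD/D, gave 1252 genes there in place of 1569 and 64 in place of 115 in the response difference of GRL/L, and gave Nr3c1 an adjusted p of 0.0792 (edgeR) in the response difference of GRD/D.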
